A study of Mus musculus with 3 samples.

Results

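Glycolysis is represented here by 9 enzyme genes, Hk1, Hk2, Gpi1, Pfkl, Tpi1, Pgk1, Eno1, Ldha and Ldhb, of 22367 annotated protein-coding genes. The genes were named first, and a peak was assigned to a gene when the peak midpoint lay within 30 kb of any annotated start site of that gene. By this rule 4 of the 9 genes had a peak of the estrogen-related receptor alpha (ESRRA), with 5 peaks between them, out of 1639 peaks in all. The other 5 genes were kept as negatives. ESRRA ChIP-seq was carried out on villus cells isolated from the duodenal epithelium of adult wild-type (WT) C57BL/6 mice on regular chow, with 2 ESRRA ChIP libraries and 1 input library. The age in weeks, the sex and the number of mice per library were not given in the sources used here. The authors merged both ChIP libraries before peak calling, so each peak is 1 pooled measurement, with no replicate error, and the reads behind a peak are not in the list. The list gives the position of each peak and no height, and a peak near a gene shows neither its expression nor an effect of ESRRA on it.

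Glycolysis splits glucose in the cytosol into pyruvate and yields a small amount of ATP, and lactate dehydrogenase interconverts pyruvate and lactate. Mitochondria oxidize pyruvate and fatty acids through the tricarboxylic acid cycle and the respiratory chain, which gives most of the ATP of an absorptive enterocyte. ESRRA is an orphan nuclear receptor best known as a regulator of mitochondrial energy genes. It binds an extended ESRR sequence, TCAAGGTCA, whose last 7 bases, AAGGTCA, are called the half-site below.

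Glucose-6-phosphate isomerase (Gpi1), triosephosphate isomerase (Tpi1), enolase 1 (Eno1) and lactate dehydrogenase A (Ldha) had a peak within 30 kb, which is 44.4% of the 9 genes (Wilson 95% interval 18.9 to 73.3%). The same count over all protein-coding genes was 8.75%. Only Tpi1 and Eno1 among the 9 had a peak within 1 kb of a start site, which is 22.2% (6.32 to 54.7%), against 2.08% of all protein-coding genes. The intervals cover counting error over genes only. No test was made, because the genes were chosen with results of these data known.

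The 5 peaks at these 4 genes are shown through 121 bases around the half-site or, where a peak had none, around its closest match. All are plus-strand mm9 sequence, written 5′ to 3′. Capitals mark a half-site on either strand in Gpi1, the downstream Tpi1 peak and Eno1. They mark the best match to the 9-base ESRR sequence in the upstream Tpi1 peak, and the 6-base core AGGTCA, read on the minus strand, in Ldha.
Gpi1, chr7:35003451-35003571: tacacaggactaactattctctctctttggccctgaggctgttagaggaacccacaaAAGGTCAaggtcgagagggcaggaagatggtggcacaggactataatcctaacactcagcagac
Tpi1 downstream, chr6:124762371-124762491: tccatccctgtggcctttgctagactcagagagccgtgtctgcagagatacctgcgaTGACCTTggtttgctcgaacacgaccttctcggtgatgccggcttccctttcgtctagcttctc
Tpi1 upstream, chr6:124763882-124764002: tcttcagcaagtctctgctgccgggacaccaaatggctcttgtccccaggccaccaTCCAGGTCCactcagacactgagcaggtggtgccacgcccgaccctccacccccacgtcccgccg
Eno1, chr4:149610597-149610717: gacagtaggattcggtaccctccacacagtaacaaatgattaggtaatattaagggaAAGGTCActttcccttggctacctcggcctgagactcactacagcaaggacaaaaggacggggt
Ldha, chr7:54094956-54095076: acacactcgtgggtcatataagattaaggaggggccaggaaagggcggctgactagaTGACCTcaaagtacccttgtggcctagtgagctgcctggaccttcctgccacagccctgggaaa

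None of the 5 peaks held the whole 9-base sequence, which only 14.3% of all peaks held. Distances of the 5 from the nearest start site ran from 125 bp at Eno1 to 8137 bp at Gpi1. All 5 had the same width, as had every peak of the list. How this width was set was not given, so a midpoint need not be the point of highest signal. That limits every distance from a midpoint below. In each of the 5, the listed enzyme was the protein-coding gene with the nearest start site. The median 24-base word of each of these peaks occurred once in the genome.

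Gpi1 converts glucose-6-phosphate to fructose-6-phosphate. The gene lies on the minus strand of chromosome 7 (mm9, 34987141 to 35015308), and its 1 peak spanned 35003233 to 35003833, in an intron. The peak midpoint was 8137 bp upstream of the nearest of 4 annotated start sites, which belongs to a short transcript, and 11767 bp downstream of the nearest start site of a coding transcript. The Gpi1 peak was therefore the one at these genes that lay farthest from a start site. Its half-site, at 35003508 to 35003514, was 22 bp from the midpoint, the closest of any half-site in the 5 peaks. The bases that follow it form a second, overlapping match, tcaaggtcG, with 8 of 9 bases of the ESRR sequence (the capital marks the mismatch). GC content was 50.1%. The only other protein-coding gene with a start site within 30 kb of this peak was Pdcd2l.

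Tpi1 interconverts the triose phosphates that aldolase makes. The gene is short (chromosome 6, minus strand, 124760604 to 124764314), and it was the only one of the 9 with more than 1 peak. The upstream peak, 124763567 to 124764167, had its midpoint in an intron 309 bp downstream of the nearest start site and 447 bp downstream of the most upstream one. The downstream peak, 124762260 to 124762860, was centred 298 bp from an internal start site and 1754 bp from the most upstream one, in an exon of a transcript without coding annotation. Their midpoints were 1307 bp apart.

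The Tpi1 peaks differed in sequence. The downstream peak had 1 half-site, at 124762428 to 124762434 in a coding exon and 129 bp from the midpoint. It forms the match Ccaaggtca on the minus strand, with 8 of 9 bases of the ESRR sequence. The upstream peak had no whole half-site and matched the ESRR sequence in at most 7 of 9 bases (tcCaggtcC, 75 bp from the midpoint). A half-site in a coding exon, at 124764162 to 124764168, reached 1 base beyond the end of the upstream peak and was not counted in it. GC content was 61.1% in the upstream and 54.4% in the downstream peak. The upstream peak also held CACGTG, the E-box read by basic helix-loop-helix factors, 152 bp from its midpoint. Cdca3, Gnb3, Spsb2 and Usp5 also had start sites within 30 kb of both peaks, and none was nearer to them than Tpi1.

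Eno1 encodes the broadly expressed enolase, which makes phosphoenolpyruvate. Its peak, at 149610405 to 149611005 on chromosome 4, was centred 125 bp upstream of the most upstream start site of the gene (plus strand, 149610830 to 149622988). Of the 9 genes, Eno1 had the peak nearest to a start site, and 0.407% of all protein-coding genes had one nearer. This peak held 2 half-sites, 48 bp and 227 bp from the midpoint. The nearer one lay upstream of the gene, in the sequence printed above, and the other in an untranslated exon. Its best match to the ESRR sequence had 7 of 9 bases. No other protein-coding gene had a start site within 30 kb of it, which held for none of the other 4 peaks.

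Ldha encodes the lactate dehydrogenase subunit that predominates in glycolytic tissues. Its peak, at 54094752 to 54095352 on chromosome 7, was intergenic, with the midpoint 1793 bp upstream of the first start site (gene on the plus strand, 54096845 to 54110997). The peak had no half-site. It had 1 AGGTCA, 36 bp from the midpoint, inside the match tTGaggtca with 7 of 9 bases of the ESRR sequence, and a GC content of 49.9%. Ldhc, the testis form of the enzyme, has its start site 21521 bp from the same peak and was counted as having a peak through it alone.

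**Figure D1:**
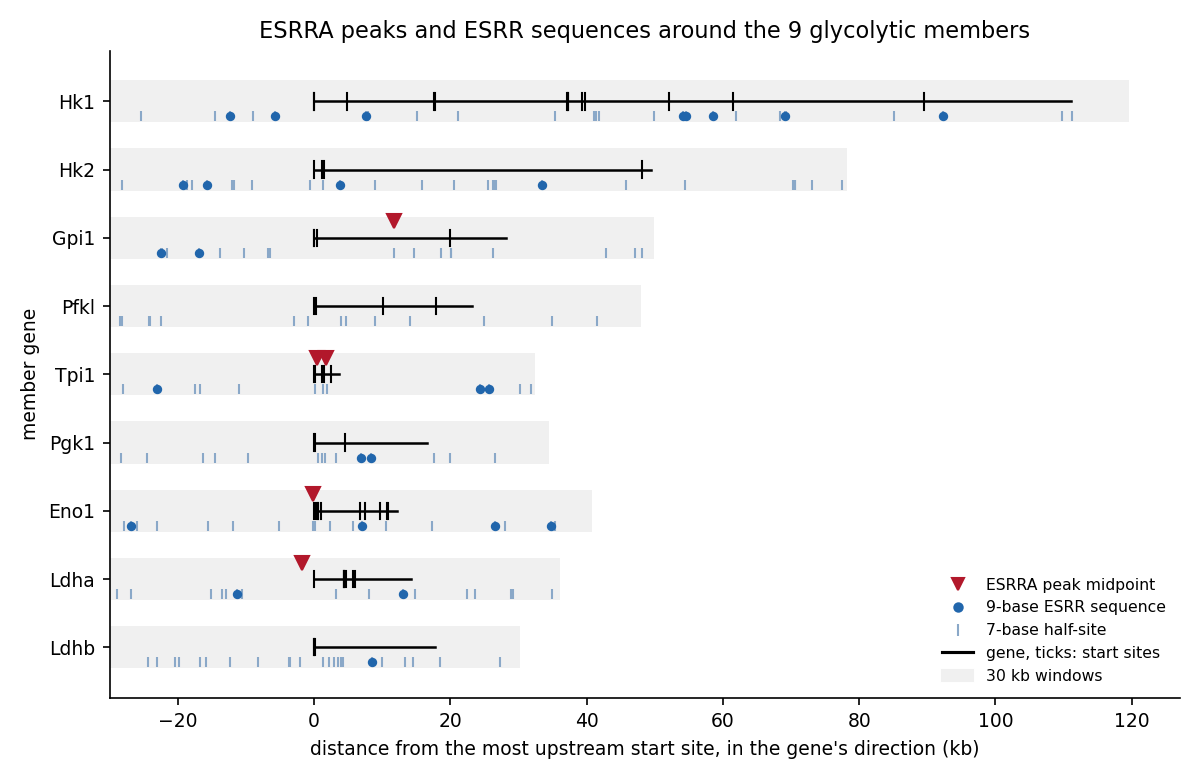
Map of the 9 glycolytic genes by distance from the most upstream start site (kb), each drawn in its own direction with start sites as ticks, peak midpoints as triangles, the 9-base ESRR sequence as dots, half-sites as short lines and the 30 kb windows shaded. The 5 peaks lie at Gpi1, Tpi1, Eno1 and Ldha, and none of the 9-base dots in any window lies in a peak.

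The 5 genes without a peak differed widely in how far the nearest one lay. Hk1, a hexokinase that traps glucose by phosphorylation, had its nearest peak 60.7 kb from a start site, and the gene nearest to that peak was Tspan15. On either side of the limit of 30 kb, the nearest of the 9 genes were Gpi1 inside it, at 8137 bp, and Hk1 outside it, at 60704 bp. Pgk1, the phosphoglycerate kinase expressed in most tissues, was 171 kb from its nearest peak, which lay at Cox7b, a gene of cytochrome c oxidase. Hk2, the insulin-responsive hexokinase of muscle and fat, was 728 kb away from a peak nearest to Mrpl19. Ldhb, the heart-type lactate dehydrogenase subunit, and Pfkl, the liver-type phosphofructokinase, were 1172 kb and 1524 kb from a peak. The median nearest distance over all protein-coding genes was 448 kb, so Hk2, Ldhb and Pfkl were farther from a peak than the median gene, and Hk1 and Pgk1 nearer.

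ESRR sequences were present in the windows of the genes without a peak. The whole 9-base sequence occurred 8 times within 30 kb of a start site of Hk1, 4 times at Hk2, 2 times at Pgk1 and 1 time at Ldhb, and was missing at Pfkl. It occurred 2 times at Gpi1, 3 times at Tpi1, 4 times at Eno1 and 2 times at Ldha, the genes with a peak, and each time outside the peak. Of all protein-coding genes, 19.7% had none in their window. The windows grew with the spread of start sites, from 60.2 kb at Ldhb to 108 kb at Hk2 and 150 kb at Hk1. The counts are therefore not rates per length. The copies nearest to a start site of 4 genes without a peak are printed with flanks of 16 bases to show whole ESRR sequences near start sites where no peak was listed (plus strand of mm9, capitals for the sequence on either strand).
Hk1, chr10:61788554-61788594: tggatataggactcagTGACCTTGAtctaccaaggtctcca
Hk2, chr6:82720584-82720624: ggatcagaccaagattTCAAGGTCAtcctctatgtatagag
Pgk1, chrX:103389259-103389299: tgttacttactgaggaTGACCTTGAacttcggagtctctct
Ldhb, chr6:142448010-142448050: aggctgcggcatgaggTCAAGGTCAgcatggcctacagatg

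These copies lay in introns, 1941 bp downstream of the nearest start site in Hk1, 2378 bp in Hk2, 2312 bp in Pgk1 and 8295 bp in Ldhb. Half-sites came closer, at 116 bp from a start site in Hk2, 346 bp in Hk1, 531 bp in Pgk1, 836 bp in Pfkl and 1157 bp in Ldhb. None was in a peak. Eno1 also had a whole ESRR sequence 259 bp from an internal start site, in an untranslated exon and outside its peak. Per 100 kb of window, half-sites ranged from 17.4 at Hk1 and 18.0 at Pfkl to 26.8 at Eno1 and 38.2 at Ldhb, with a median of 21.7 over the 9 genes. The median was 20.0 over all protein-coding genes, with quartiles of 16.6 and 24.4. The density of half-sites thus did not separate the genes with a peak, at 19.2 to 26.8, from those without, at 17.4 to 38.2. Over the whole genome, 0.564% of the 56720 copies of the 9-base sequence and 0.206% of the 504476 half-sites lay in a peak.

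The remaining glycolytic enzymes, a list of 18 genes written for comparison, had the same share. A peak lay within 30 kb of 8 of the 18 (44.4%, Wilson interval 24.6 to 66.3%) and within 1 kb of 5 (27.8%, 12.5 to 50.9%). Over all protein-coding genes these shares were 8.75% and 2.08%. Pyruvate kinase, muscle form (Pkm, which the annotation calls Pkm2), had a peak centred 9 bp from its start site. Aldolase A (Aldoa) had one at 16 bp, Gapdh, the dehydrogenase that yields the NADH of glycolysis, at 54 bp, and phosphoglycerate mutase 1 (Pgam1) at 732 bp. Pfkp, the platelet-type phosphofructokinase, followed at 1282 bp. The 16 bp of Aldoa were from an internal start site. Its peak lay 818 bp downstream of the nearest start site of a coding transcript and 2428 bp downstream of the most upstream one. The peaks of Eno3 and Ldhc had other genes nearer to them. Eno3, the muscle enolase, was 5902 bp from a peak to which Pfn1, Rnf167 and Slc25a11 were closer, and Ldhc was reached only by the Ldha peak.

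By pathway step, 9 of the 11 reactions from hexokinase to lactate dehydrogenase had a peak within 30 kb of at least 1 enzyme gene, and 6 had one within 1 kb. Any enzyme gene could count for its step, so steps with several genes had more ways to be counted. By gene the shares were 12 of 27 (44.4%) within 30 kb and 7 of 27 (25.9%) within 1 kb. They were 8.75% and 2.08% over all protein-coding genes. The steps without a peak were hexokinase, whose genes include Hk1, Hk2, Hk3 and Hkdc1, and phosphoglycerate kinase, with Pgk1 and Pgk2. Where a step has several enzyme genes, no more than 2 had a peak. Among the phosphofructokinases Pfkp had one, with Pfkl 1524 kb and Pfkm 187 kb from any peak, and among the pyruvate kinases Pkm had one, with Pklr, the liver and red cell form, 142 kb away. Of the lactate dehydrogenases the Ldha peak lay 1793 bp from its gene, and Ldhb had none within 1172 kb. On chromosome 6, the peaks of Tpi1 and Gapdh, 5 of the 16 distinct glycolytic peaks, lay in a stretch of 353 kb.

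**Figure D2:**
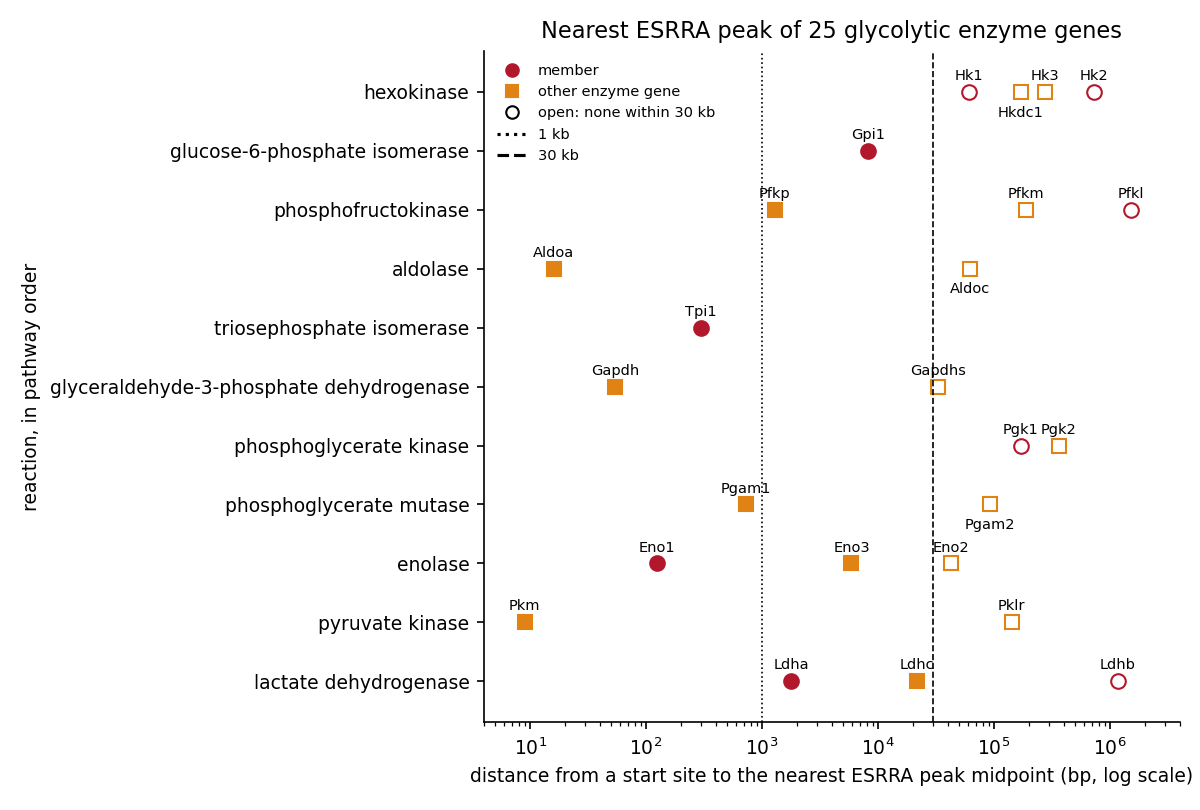
Distance from the nearest start site to the nearest peak midpoint (bp, log axis) of 25 glycolytic enzyme genes in pathway order, with filled symbols for the 11 genes within 30 kb and lines at 1 kb and 30 kb. Circles are the 9 genes chosen and squares 16 other enzyme genes, and no filled symbol stands at the hexokinase and phosphoglycerate kinase steps.

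The whole ESRR sequence was found in 3 of the 16 glycolytic peaks (18.8%), those at Aldoa, Gapdh and Pgam1. It lay 242 bp, 84 bp and 257 bp from the midpoint of the peak in turn, in an intron of Aldoa and Pgam1 and in a noncoding exon of Gapdh. Of all peaks 14.3% held it, and of windows of the same width centred on protein-coding start sites 0.756%. For comparison with the half-sites of Gpi1, Tpi1 and Eno1, the Gapdh site is printed below from the plus strand of mm9, with capitals for the 9 bases on either strand.
Gapdh, chr6:125115113-125115233: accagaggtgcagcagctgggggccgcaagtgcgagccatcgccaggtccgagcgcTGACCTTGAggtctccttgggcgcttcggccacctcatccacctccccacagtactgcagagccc

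Half-sites were found in 3 of the 5 peaks at Gpi1, Tpi1, Eno1 and Ldha, and in 8 of the 16 at all glycolytic genes (50.0%). The share was 44.0% of all 1639 peaks and 51.4% of single-copy peaks. It was 51.9% of the 443 peaks within 1 kb of a protein-coding start site, and 7.82% of windows on start sites. Peaks with 2 or more half-sites were those at Eno1, Aldoa, Pgam1 and the middle Gapdh peak, which had 3. They make up 25.0% of the glycolytic peaks, against 9.58% of all peaks and 11.9% of single-copy peaks. The 13 half-sites in glycolytic peaks lay a median of 129 bp from the midpoint, with 3 of them, at Gpi1, Eno1 and Aldoa, within 50 bp. The median over the 1041 half-sites in all peaks was 84 bp. No half-site was found in the peaks at Eno3 and Pkm, although the Pkm peak matched the ESRR sequence in 8 of 9 bases (tcaaggtTa) 34 bp from its midpoint.

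**Figure D3:**
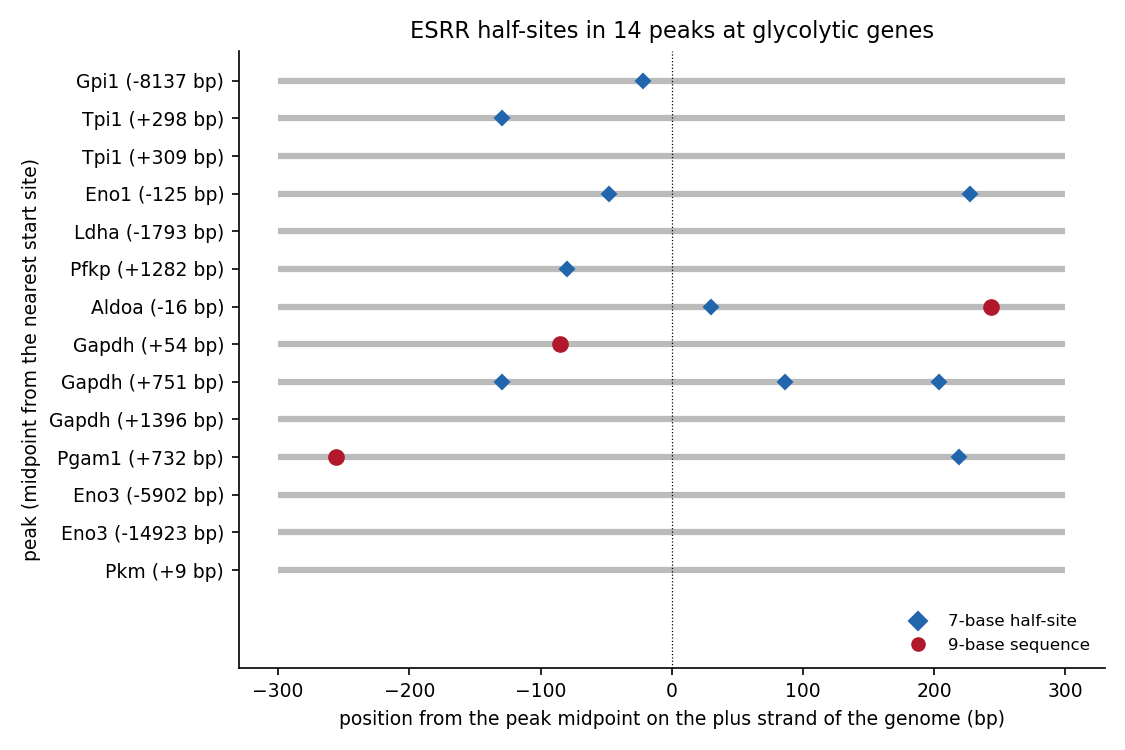
Positions of half-sites (diamonds) and whole 9-base ESRR sequences (circles) from the midpoint of each of 14 glycolytic peaks (bp, plus strand), with each peak drawn as a bar and named by its gene and its distance from the nearest start site. Of the 13 sites, 3 lie within 50 bp of a midpoint, at Gpi1, Eno1 and Aldoa, and 6 peaks have none.

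Binding sequences of other factors were searched in the same way. The core of the hypoxia-response element, through which HIF1 controls glycolytic genes, was searched as ACGTG and as GCGTG. The first was in the upstream Tpi1 peak and the Eno1 peak, and in 7 of the 16 glycolytic peaks (43.8%), against 42.6% of peaks at mitochondrial energy genes, 28.4% of all peaks and 34.7% of start-site windows. The second was in 8 of the 16 (50.0%), against 77.9%, 38.2% and 54.3%. The E-box CACGTG, which contains ACGTG, was in the upstream Tpi1 peak and in those of Pfkp, Aldoa and Gapdh, which is 4 of 16 (25.0%), against 9.70% of all peaks and 11.9% of start-site windows. The GC-box GGGCGGG was in none of the 5 peaks at the 9 genes and in 4 of all 16 (25.0%), against 15.4% of all peaks and 40.9% of start-site windows. The ETS sequence CCGGAAG was in none of the 5 and in 2 of the 16 (12.5%), against 8.05% of all peaks and 15.6% of start-site windows. Neither the cAMP-response sequence TGACGTCA nor the 10-base palindrome of NRF1 was in any, and both were rare over all peaks, at 1.16% and 0.244%. The HNF4 sequence CAAAGTCCA and the CDX sequence TTTATGG were in none of the 16, and the shares over all peaks were 2.56% and 6.59%. Each search was for exact matches on both strands, and a match is not a site shown to be bound.

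The mitochondrial energy genes had peaks at a slightly higher share within 30 kb, and closer to their start sites. Of 112 genes for the respiratory chain, ATP synthase, the tricarboxylic acid cycle, pyruvate dehydrogenase and fatty acid oxidation, 59 had a peak within 30 kb (52.7%, Wilson interval 43.5 to 61.7%), against 4 of 9 and 8 of 18 for the glycolytic genes. The interval of the 9 genes contains this share. Within 1 kb the count was 52 of 112 (46.4%, 37.5 to 55.6%), against 2 of 9 and, over all 27 glycolytic enzymes, 7 of 27 (25.9%, 13.2 to 44.7%). The intervals overlap, and the difference was not tested. Among all protein-coding genes, 8.75% had a peak within 30 kb and 2.08% within 1 kb. Among genes with a peak within 30 kb, the median distance was 164 bp for mitochondrial genes, 1045.5 bp for the 4 of the 9 and 672.5 bp for all 12 glycolytic enzymes with one, and 8804 bp for all protein-coding genes.

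**Figure D4:**
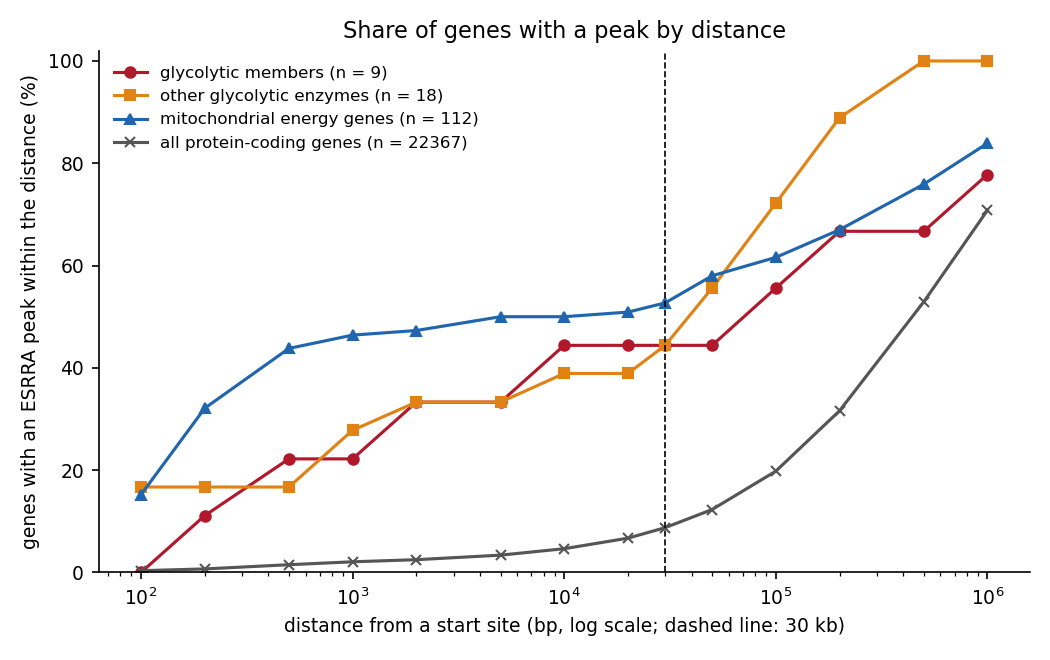
Share of genes (%) with a peak midpoint within a given distance of a start site (bp, log axis) for the 9 glycolytic genes, the other 18 glycolytic enzymes, 112 mitochondrial energy genes and all 22367 protein-coding genes. At 500 bp the mitochondrial genes reach 43.8% and the 9 genes 22.2%, and at 10 kb they reach 50.0% and 44.4%.

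Glycolytic shares fell within the range of the mitochondrial lists. All protein-coding genes stood at 8.75% within 30 kb and 2.08% within 1 kb. Cytochrome c oxidase subunits had a peak within 30 kb at 10 of 12 genes (nearest at Cox7a1, 18 bp, and Cox7c, 58 bp) and ATP synthase subunits at 12 of 15 (Atp5g3, 0 bp, and Atp5c1, 10 bp). Complex III with cytochrome c followed at 7 of 10 (Uqcrc2, 77 bp, and Uqcrfs1, 101 bp), complex II at 2 of 4 (Sdha, 88 bp, and Sdhd, 142 bp) and complex I at 16 of 36 (Ndufc1, 6 bp, and Ndufs7, 11 bp), the last with the same 44.4% as glycolysis. Below it lay pyruvate dehydrogenase at 2 of 5 (Pdhb, 91 bp, and Dld, 142 bp), fatty acid oxidation at 6 of 17 (Etfa, 149 bp, and Acadm, 216 bp) and the tricarboxylic acid cycle at 4 of 13 (Ogdh, 137 bp). Fatty acid oxidation was the only mitochondrial list with a lower share within 1 kb, 2 of 17, than the 9 glycolytic genes.

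**Figure D5:**
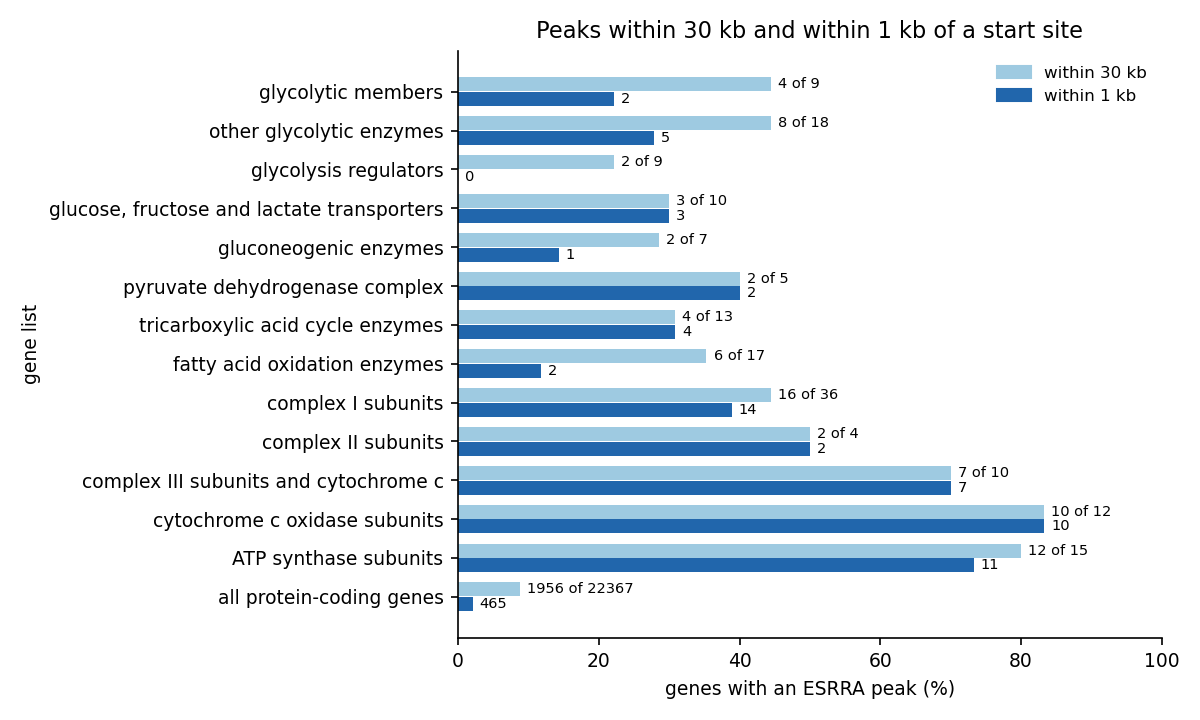
Share of genes (%) with a peak midpoint within 30 kb (light bars) and within 1 kb (dark bars) of a start site, with the counts beside the bars, for the glycolytic, related and mitochondrial gene lists and all protein-coding genes. Light and dark bars differ by 4 against 2 genes for the 9 glycolytic genes and by 10 against 10 for cytochrome c oxidase.

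The sequence of glycolytic and mitochondrial peaks was compared as a description. Half-sites were in 44 of 68 mitochondrial peaks (64.7%) against 8 of 16 glycolytic ones (50.0%). Among peaks within 1 kb of a start site the shares were closer, with 38 of 53 (71.7%) against 6 of 9 (66.7%). The 9-base sequence was in 11 of 68 (16.2%) against 3 of 16 (18.8%), and within 1 kb in 9 of 53 (17.0%) against 3 of 9 (33.3%). Half-sites lay a median of 75 bp from the midpoint in mitochondrial peaks and 129 bp in glycolytic ones. Median GC content was 59.5% in mitochondrial peaks, 54.0% in all glycolytic peaks and 54.4% in the 5 at the 9 genes. It was 48.8% over all peaks, 50.4% over single-copy peaks and 56.7% over peaks within 1 kb of a protein-coding start site. CACGTG was 1 of several searched sequences with a lower share in mitochondrial than in glycolytic peaks. It was in 4 of 68 (5.88%) against 4 of 16 (25.0%), and in 9.70% of all peaks. Relative to the nearest start site of any transcript, the nearest peak was downstream at 44 of the mitochondrial genes and upstream at 14. It was downstream at 6 and upstream at 6 of the glycolytic enzymes, and downstream at 1090 and upstream at 864 of all protein-coding genes. Gpi1 and Aldoa were counted as upstream. Their peaks lay 11767 bp and 818 bp downstream of the nearest start site of a coding transcript. The difference was not tested.

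Genes that feed, control or oppose glycolysis had a peak within 30 kb at 22.2% of regulators, 30.0% of transporters and 28.6% of gluconeogenic enzymes. Over all protein-coding genes the share was 8.75% within 30 kb and 2.08% within 1 kb. The shares of the 3 lists were below the 44.4% of the enzymes within 30 kb. Within 1 kb the transporters, still at 30.0%, were above the enzymes. Neither difference was tested. Of 9 regulators, 2 had a peak within 30 kb and none within 1 kb. These were Mlxipl, a glucose-responsive transcription factor, at 1416 bp, and Pfkfb2, which sets the level of fructose-2,6-bisphosphate, at 2971 bp. Of 10 sugar and lactate transporters, 3 had one within 30 kb, all of them also within 1 kb, namely Slc5a1, the sodium-glucose cotransporter of the brush border, at 0 bp, Slc2a2, the basolateral glucose transporter GLUT2, at 308 bp, and Slc16a1, a monocarboxylate carrier, at 327 bp. Slc5a1 had 12 peaks within 30 kb, more than the 5 of all 9 glycolytic genes together. Of 7 gluconeogenic enzymes, Pck1 had a peak at 381 bp and G6pc one at 4782 bp. All 13 villus enterocyte markers had a peak within 30 kb, against 8.75% of all protein-coding genes. None of 18 markers of crypt, Paneth, goblet, enteroendocrine, immune and mesenchymal cells did. A peak does not show expression, so these counts do not check which cells were present. Slc5a1 is in both the transporter and the marker list.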

How the data were processed

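Each deposited row gave a chromosome and 2 positions in bp, with no score, height or signal. According to the study's methods and the submitters' processing notes, the authors checked reads with FastQC 0.11.3, aligned them to mm9 with Bowtie2 2.2.6, merged the 2 ChIP replicates with SAMtools 0.1.19 and called peaks with MACS2 at a p-value of 1e-05. They also used deepTools 2.4.2. How all peaks came to have 1 width was not given in the sources used here. Because replicates were pooled, no error between samples could be had, and the list holds no read counts.

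Positions are counted from 1. Genes and start sites were from GENCODE M1 on the mm9 genome sequence. A gene had a peak when the midpoint lay within 30 kb (or 1 kb) of any start site. Copies of 24-base words were counted over the genome on both strands, and a peak with a median over 10 was called multi-copy (324 of 1639). Sequences were matched exactly on both strands with Python 3.11.15, numpy 2.4.6 and pysam 0.24.0. The functions were tested on simulated data. Of 197 listed symbols, 1 (Ndufb1) was not matched. Named genes were all 9, other glycolytic, regulatory, transporter and gluconeogenic genes with a peak, the 2 nearest per mitochondrial list, and genes nearer to a peak. Enzyme genes without a peak that are named by step were chosen after their values were seen. Some genes and sequences that this rule names are not reported here, and the plots leave them out. The genes and lists were chosen with earlier results of these data known.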

Additional observations from a re-analysis of the deposited data

How the results depend on the processing

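With windows of 10 kb and 50 kb, any overlapping base, coding start sites, the most upstream start site, single-copy peaks or the nearest gene only, the same 4 of the 9 genes had a peak. A window of 100 kb added Hk1 and raised the peaks from 5 to 9 and the other glycolytic enzymes from 8 to 13, as a wider window must, while the share of all protein-coding genes rose to 19.8%. Searching TCAAGGTCA in place of AAGGTCA lowered the peaks at the 9 genes that hold the sequence from 3 to 0. The longer sequence contains the shorter, so this count could not rise, but a fall to 0 was not forced. Of all peaks, 14.3% held the longer sequence and 44.0% the shorter. The other 37 alternative values stayed within 1.5 times the main count. Counting each peak only at its nearest gene gave 6 of the 18 other enzymes, without Eno3 and Ldhc, and 52 of the 112 mitochondrial genes, against 4.38% of all genes.

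No paired analysis was possible because the authors pooled the ChIP replicates before peak calling. A stricter p-value and leaving out each ChIP replicate were not run, since peaks with scores or per replicate were not analysed here. The list holds no reads per peak or per gene, which limits what a missing peak shows.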
